A study of Mus musculus with 12 samples.

Results

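The aminoacyl-tRNA synthetases of IEC4.1 cells were followed through IFN-γ stimulation and knockdown of the long noncoding RNA Nostrill. Genes were taken by symbol: a letter followed by ars, with or without a closing 1 or 2, together with Eprs, Farsa, Farsb and the names written out for Pars2, Ears2 and Sars2. This gave 37 of the 15002 genes listed, of which 20 encode cytosolic and 17 mitochondrial enzymes. IEC4.1 is a line of mouse intestinal epithelial cells of wild-type genotype. All cells had been transfected at 120 nM for 24 h, either with a scrambled siRNA (siR_Ctrl) or with a pool of 3 siRNAs to Nostrill (siR_Nostrill). Each kind then stayed unstimulated or received IFN-γ at 1 ng/ml for 4 h, the dose and time given where the paper describes these groups, whereas the sample labels give 24 h throughout. Stimulated groups are written siR_Ctrl + IFN-γ and siR_Nostrill + IFN-γ, and each of the 4 groups held 3 libraries.

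Synthetases join amino acids to their tRNAs and so supply charged tRNA to the ribosome. Mitochondria have a set of their own, encoded in the nucleus, with symbols that end in 2, while Kars and Gars serve both compartments. In the cytosol, several of the enzymes sit together in a multi-synthetase complex held by the scaffold proteins Aimp1, Aimp2 and Eef1e1. The tryptophanyl enzyme, Wars, is a classical interferon-γ-induced gene. Amino acid shortage raises many cytosolic synthetase genes through the transcription factor Atf4.

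Libraries held 17824306 to 19093204 reads on genes, and all 37 synthetases passed the filter on low counts. The level of Nostrill was not analysed here and gave no check of the knockdown. Of 10 epithelial markers 6 were listed, and their summed level ran only from 9.48 to 31.2 TPM, a level scaled by length and library depth, almost all of it Tjp1 and Krt19. Krt8, Krt18, Krt7 and Vil1 each averaged 0.30 TPM or less in every group. The summed level of 8 mesenchymal markers, Vim and collagens foremost, was 2619 to 4016 TPM. The defining epithelial keratins were therefore nearly absent from cells labelled intestinal epithelial, and the label is kept here only as a name. The epithelial sum overlapped between all groups. The mesenchymal sum overlapped too, except that siR_Nostrill + IFN-γ cells (3257 to 3371 TPM) lay just above siR_Nostrill cells (2619 to 3237 TPM), and its part in the results was not tested. In bulk RNA, fewer cells of a kind and less RNA per cell cannot be told apart. Leukocyte markers summed to 1.29 to 3.24 TPM and endothelial markers to 0.030 to 0.280 TPM. The leukocyte sum of siR_Nostrill + IFN-γ cells (2.73 to 3.24 TPM) lay above that of siR_Ctrl + IFN-γ cells (1.85 to 2.47 TPM). It also lay above that of siR_Ctrl cells (1.67 to 2.42 TPM), and its part in the results was not tested. Nothing in the labels says whether replicates were separate cultures, while the study's methods describe biological triplicates, so p-values measure the spread between these libraries.

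The cytosolic enzymes were the more abundant set in every library. They took 0.243% to 0.317% of all TPM, against 0.0219% to 0.0308% for the mitochondrial enzymes. TPM corrects for transcript length, and levels of different genes are set side by side on that scale. The spread between replicates still moved with length, so such comparisons between genes are approximate. Fold changes were fitted to counts with TMM scaling and can differ from a ratio of TPM. Kars, the lysyl enzyme, was highest in all 4 groups, with 375 ± 18.7 TPM in siR_Ctrl cells (SD, n = 3). Aars, the alanyl enzyme, came next with 269 ± 36.0 TPM. Iars2 and Tars2 led the mitochondrial set, at 31.1 to 59.2 and 30.6 to 38.5 TPM over the 12 libraries. Ears2 and Wars2 were at its bottom, at 2.52 to 4.86 and 2.34 to 5.33 TPM, ranges that overlap.

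**Figure D1:**
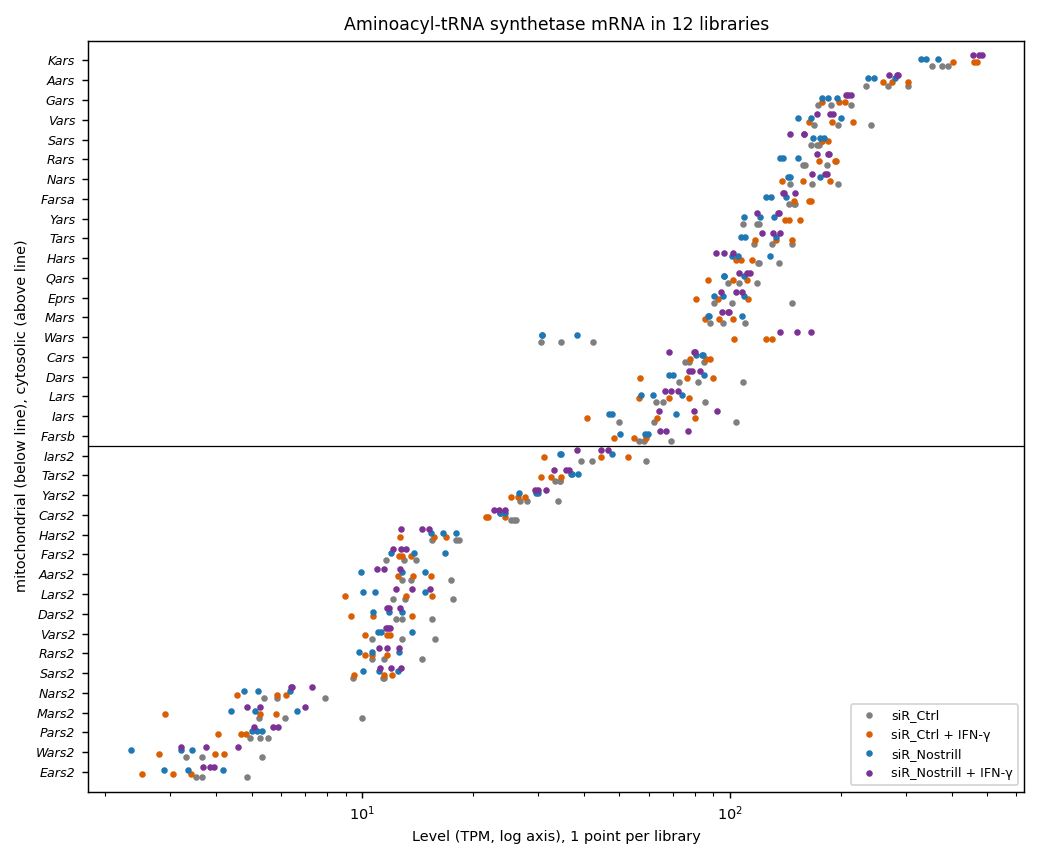
Level of each of the 37 synthetases in TPM (log axis), with 1 point per library and colours for the 4 groups; cytosolic enzymes are above the line and mitochondrial enzymes below it. The IFN-γ libraries of Wars, at 103 to 166 TPM, lie far above the others, at 30.6 to 42.3 TPM, and those of Kars, at 405 to 484 TPM, lie just above the others, at 329.6 to 392 TPM.

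IFN-γ raised Wars about 4-fold, and no other synthetase moved on that scale. Wars (gene ID 22375) lies on chromosome 12, 108860030 to 108894175, on the minus strand of GRCm38.p6. Its level was 42.3, 30.6 and 34.7 TPM in siR_Ctrl cells and 125, 103 and 129.8 TPM in siR_Ctrl + IFN-γ cells. In siR_Nostrill cells it was 30.9, 30.8 and 38.4 TPM, and in siR_Nostrill + IFN-γ cells 166, 152 and 137 TPM. Every library given IFN-γ was above every library without it. The log2 fold change was 1.88 ± 0.074 (SE) in siR_Ctrl cells, with a Benjamini-Hochberg adjusted p of 1.05e-08 by the quasi-likelihood test of edgeR. In siR_Nostrill cells it was 2.01 ± 0.074, with an adjusted p of 6.98e-09 in edgeR. Among all 11900 genes tested, Wars ranked 169th and 137th from the top by log2 fold change in these comparisons. Its call held in each of the 12 fits that left out 1 library.

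Within its own family Wars changed place. By mean level it was 21st of 37 in siR_Ctrl and 22nd in siR_Nostrill cells, the lowest of the cytosolic enzymes in both. With IFN-γ it was 11th and 8th. It made up 1.11% to 1.24% of all synthetase TPM in the libraries without IFN-γ, and 3.56% to 4.98% in those with it. Measured as log2 FPKM (fragments scaled by length and library depth) against the median of the 36 other synthetases in the same library, Wars stood at -0.79 ± 0.0049 in siR_Ctrl and 1.08 ± 0.11 in siR_Ctrl + IFN-γ cells (SD, n = 3 each). The corresponding values were -0.73 ± 0.062 in siR_Nostrill and 1.16 ± 0.097 in siR_Nostrill + IFN-γ cells. The share of all TPM taken by the synthetases together, 0.268% to 0.343%, overlapped between every pair of groups except siR_Nostrill and siR_Nostrill + IFN-γ, whose libraries held 0.268% to 0.309% and 0.312% to 0.332%. With Wars left out, the libraries of these groups held 0.265% to 0.306% and 0.298% to 0.316%, which overlapped.

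**Figure D2:**
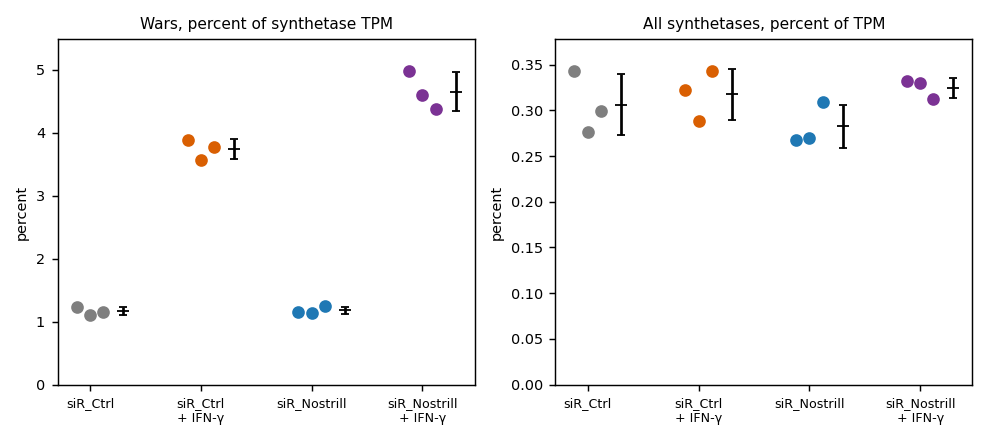
Left, Wars as a percent of the summed TPM of the 37 synthetases; right, all synthetases as a percent of total TPM; points are libraries and bars are mean ± SD (n = 3). On the left the libraries with IFN-γ lie at 3.56% to 4.98% and the others at 1.11% to 1.24%, while on the right all 12 lie between 0.268% and 0.343%.

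Wars2, the mitochondrial tryptophanyl enzyme (gene ID 70560, chromosome 3, 99140107 to 99221230), did not share the increase. Its level was 5.33, 3.66 and 3.31 TPM in siR_Ctrl and 3.97, 2.80 and 4.19 TPM in siR_Ctrl + IFN-γ cells. It was 3.43, 2.34 and 3.22 TPM in siR_Nostrill and 4.60, 3.76 and 3.22 TPM in siR_Nostrill + IFN-γ cells. The groups overlapped in both comparisons. Its log2 fold change with IFN-γ was 0.0036 ± 0.13 in siR_Ctrl cells (adjusted p = 0.993, edgeR) and 0.25 ± 0.14 in siR_Nostrill cells (adjusted p = 0.303, edgeR). The sign of the first of these turned in 5 of 10 other settings.

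In siR_Ctrl cells, 2 of 37 synthetases rose with IFN-γ, Wars and Yars, or 5.41%, against 4.71% of all genes tested. None fell, against 0.748% of all genes. Without adjustment for the number of genes, 6 had a p below 0.05 and a higher level (Aars, Kars, Rars, Tars, Wars and Yars), or 16.2% against 8.61%. Mars2 alone had a lower one, 2.70% against 6.03%. In siR_Nostrill cells Wars rose, 1 of 37 or 2.70% against 5.24%, and Hars2 fell, 2.70% against 1.55%. Unadjusted, Kars and Wars were higher, 5.41% against 11.7%, and Hars, Hars2, Sars and Vars2 lower, 10.8% against 10.2%. The median log2 fold change of the 36 other synthetases was 0.036 in siR_Ctrl and -0.058 in siR_Nostrill cells, beside -0.0085 and -0.00056 over all genes.

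**Figure D3:**
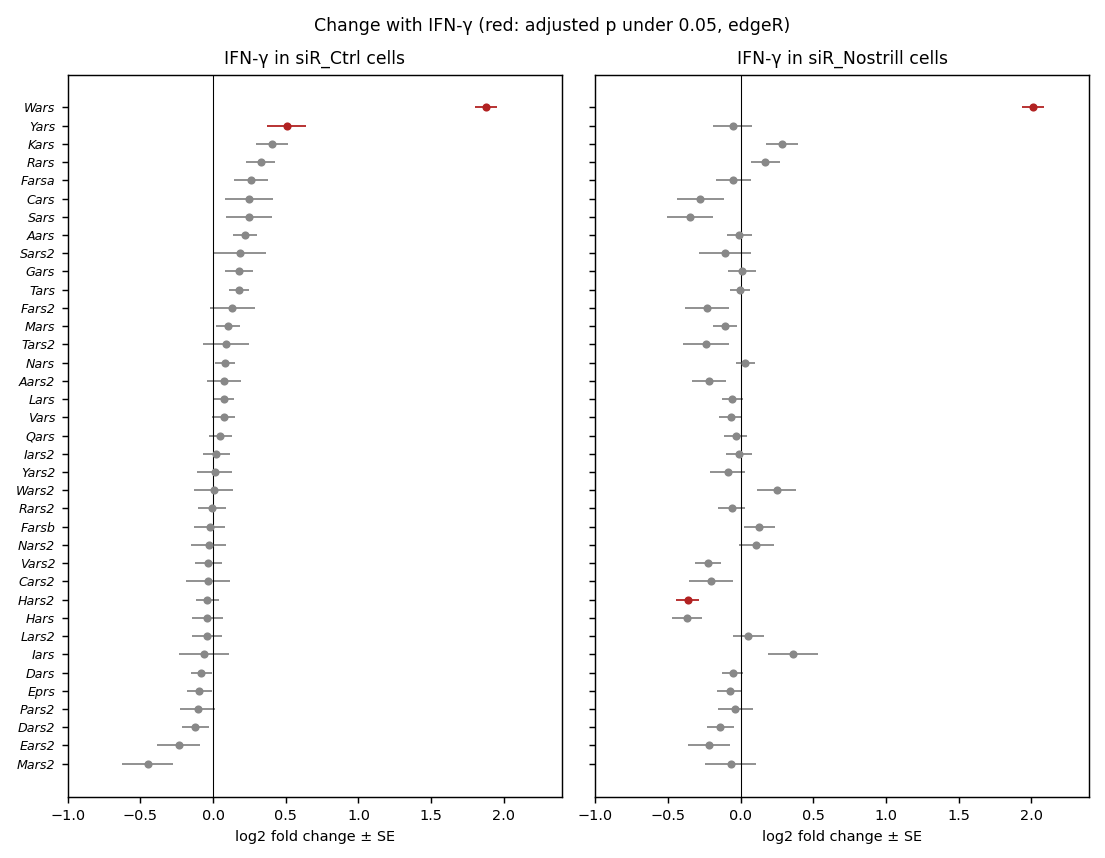
log2 fold change with IFN-γ (± SE, edgeR) of the 37 synthetases in siR_Ctrl cells (left) and siR_Nostrill cells (right), in the order of the left panel; red marks an adjusted p under 0.05. Wars lies at 1.88 and 2.01, and every other synthetase between -0.45 and 0.51.

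Yars, the tyrosyl enzyme and like Wars a class I synthetase outside the complex, was the second gene called in siR_Ctrl cells. Yars (gene ID 107271, chromosome 4, 129189734 to 129219240) was at 119.6, 108 and 119 TPM in siR_Ctrl and at 145, 141 and 155 TPM in siR_Ctrl + IFN-γ cells, with no overlap. It was at 109, 120.4 and 132 TPM in siR_Nostrill and at 118, 136 and 135 TPM in siR_Nostrill + IFN-γ cells, which did overlap. The log2 fold change was 0.51 ± 0.13 in siR_Ctrl cells (adjusted p = 0.04998, edgeR) and -0.054 ± 0.13 in siR_Nostrill cells (adjusted p = 0.815, edgeR). The first call lay at the threshold. It held in 2 of the 12 fits that left out 1 library, with adjusted p from 0.0474 to 0.178 in edgeR, and in 7 of 10 other settings.

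Kars and Rars, both enzymes of the complex, had higher fitted values with IFN-γ without passing in edgeR. Kars (gene ID 85305, chromosome 8, 111993439 to 112011354) was at 392, 355 and 378 TPM in siR_Ctrl and at 470.2, 405 and 461 TPM in siR_Ctrl + IFN-γ cells. It was at 340.3, 329.6 and 368 TPM in siR_Nostrill and at 474, 484 and 458 TPM in siR_Nostrill + IFN-γ cells. The levels with and without IFN-γ did not overlap for either siRNA. Its log2 fold change was 0.40 ± 0.11 in siR_Ctrl cells (adjusted p = 0.0589, edgeR) and 0.28 ± 0.11 in siR_Nostrill cells (adjusted p = 0.158, edgeR). Rars, the arginyl enzyme (gene ID 104458, chromosome 11), was at 184, 158 and 159 TPM in siR_Ctrl and at 193, 175 and 194 TPM in siR_Ctrl + IFN-γ cells. Its log2 fold change there was 0.33 ± 0.10 (adjusted p = 0.107, edgeR). Without siR_Ctrl + IFN-γ replicate 3, both were called, with adjusted p of 0.0335 for Kars and 0.0458 for Rars in edgeR. Of 10 other settings in siR_Ctrl cells, 5 called Kars and 3 called Rars. DESeq2 was among them, with an adjusted p of 0.00865 for Kars and 0.0371 for Rars.

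Promoters were read from RefSeq on GRCm38.p6 as 1 window per gene, from 250 bases before to 50 bases after the start site given there. Of the 37 genes, 27 had an entry, and Wars and Rars were not among them. The start site lay within 100 bases of the outer end of the RefSeq gene for 19 of the 27. For the other 8 it lay further inside, by 169 bases for Yars and by 6064 bases for Aars. The window of Kars, on the minus strand at chr8:112011305-112011604, and that of Yars, on the plus strand at chr4:129189653-129189952, are shown because these genes had the next highest fitted values after Wars in siR_Ctrl cells. Capitals mark a match to TTCNNNGAA, the letters of a gamma-activated site, in Kars, and to TGATGNAA, the core of the C/EBP-ATF response element through which Atf4 acts, in Yars.
Kars: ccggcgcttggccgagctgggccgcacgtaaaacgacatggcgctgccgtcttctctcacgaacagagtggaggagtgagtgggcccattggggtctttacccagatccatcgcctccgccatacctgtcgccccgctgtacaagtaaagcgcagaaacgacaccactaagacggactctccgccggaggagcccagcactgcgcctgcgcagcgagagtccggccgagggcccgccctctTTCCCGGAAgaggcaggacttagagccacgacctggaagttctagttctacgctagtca
Yars: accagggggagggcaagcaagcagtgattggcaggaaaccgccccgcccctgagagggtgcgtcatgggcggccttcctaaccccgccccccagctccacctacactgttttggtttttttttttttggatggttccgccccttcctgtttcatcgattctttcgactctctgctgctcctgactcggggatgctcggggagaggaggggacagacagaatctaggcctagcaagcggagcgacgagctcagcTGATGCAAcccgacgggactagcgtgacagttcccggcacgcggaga
TTCNNNGAA, which reads the same on both strands, was found in 3 of 27 synthetase windows (Aars, Kars and Nars2), 11.1%, against 8.47% of all 27025 windows. TGATGNAA, searched on both strands, was found in 5 of 27 (Aars, Gars, Iars, Tars and Yars), 18.5%, against 4.06% of all windows. The core of the interferon-stimulated response element, searched on both strands, was found in Qars alone, 3.70% against 3.49%. CCAAT, also on either strand, was in 13 of 27 windows, 48.1% against 37.9%. No match to one motif overlapped a match to another in the synthetase windows, and a match is a description of letters, not of binding.

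The 5 genes with TGATGNAA all encode cytosolic enzymes. They are given with 16 bases on either side, on the strand of the gene, with the match in capitals, as TGATGNAA or its reverse complement TTNCATCA. Aars is shown at chr8:111033714-111033753 and again at chr8:111033835-111033874, Gars at chr6:55037955-55037994, Iars at chr13:49682121-49682160, Tars on the minus strand at chr15:11399650-11399689 and Yars at chr4:129189890-129189929.
Aars: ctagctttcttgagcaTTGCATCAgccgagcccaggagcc
Aars, second match: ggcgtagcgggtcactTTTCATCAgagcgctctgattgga
Gars: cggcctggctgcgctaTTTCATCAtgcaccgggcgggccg
Iars: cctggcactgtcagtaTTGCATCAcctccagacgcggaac
Tars: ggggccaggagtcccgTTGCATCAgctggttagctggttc
Yars: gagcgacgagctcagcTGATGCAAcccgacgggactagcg
Of these, edgeR called Yars with IFN-γ in siR_Ctrl cells, and with the length trend removed Tars too. Gars was at 0.18 ± 0.096 (adjusted p = 0.446, edgeR). Aars (log2 fold change 0.22 ± 0.085) and Tars (0.18 ± 0.071) had an unadjusted p below 0.05. Iars was at -0.060 ± 0.17, and in siR_Nostrill cells edgeR called none of the 5. Of all genes, edgeR called 4.71% higher and 0.748% lower in siR_Ctrl cells, and 5.24% and 1.55% in siR_Nostrill cells. With 5 genes, 0 or 1 called gene is near those shares. With the length trend removed, 11.1% of all genes were called in siR_Ctrl and 18.9% in siR_Nostrill cells, in either direction.

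**Figure D4:**
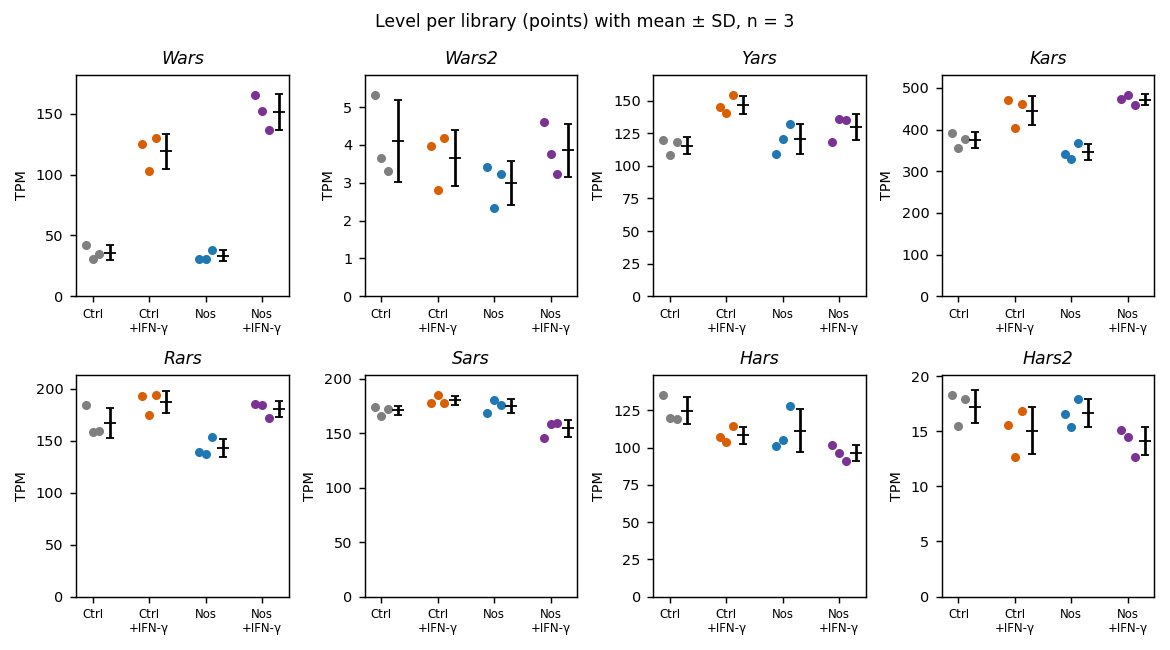
Level in TPM of Wars, Wars2, Yars, Kars, Rars, Sars, Hars and Hars2 in each library (points; Ctrl, siR_Ctrl; Nos, siR_Nostrill) with mean ± SD (n = 3); axes start at 0. Wars and Kars are higher with IFN-γ, without overlap, for both siRNAs, Yars in siR_Ctrl and Rars in siR_Nostrill cells; Sars is higher in siR_Ctrl and lower in siR_Nostrill cells, Hars lower in siR_Ctrl and Hars2 in siR_Nostrill cells, and Wars2 overlaps in both. These directions describe TPM levels and are not calls, and the share of all genes without overlap was not counted. Of the genes shown, edgeR called only Wars for both siRNAs, Yars in siR_Ctrl and Hars2 in siR_Nostrill cells.

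Hars2 and Hars, the mitochondrial and cytosolic histidyl enzymes, had the lowest fitted values with IFN-γ in siR_Nostrill cells, Hars2 past the threshold and Hars not in edgeR. They lie head to head on chromosome 18, Hars at 36766528 to 36783205 on the minus strand and Hars2 at 36783202 to 36792562 on the plus strand. They share 4 bases in RefSeq, and since it is not stated that counting used strand, reads of the shared stretch cannot be assigned with certainty. Hars2 (gene ID 70791) was at 16.6, 15.4 and 17.9 TPM in siR_Nostrill and at 15.1, 14.5 and 12.7 TPM in siR_Nostrill + IFN-γ cells, with no overlap. It was at 18.3, 15.5 and 17.9 TPM in siR_Ctrl and 15.6, 12.7 and 16.8 TPM in siR_Ctrl + IFN-γ cells, which overlapped. The log2 fold change was -0.36 ± 0.081 in siR_Nostrill cells (adjusted p = 0.0187, edgeR) and -0.039 ± 0.081 in siR_Ctrl cells (adjusted p = 0.854, edgeR). The call held in all 10 other settings and in 6 of 12 fits that left out 1 library. It was lost without any 1 library of siR_Nostrill or siR_Nostrill + IFN-γ cells, where adjusted p ran from 0.0623 to 0.0941 in edgeR. Hars (gene ID 15115) was at 101, 105 and 128 TPM in siR_Nostrill and at 101.5, 96.4 and 91.3 TPM in siR_Nostrill + IFN-γ cells, which overlapped. In siR_Ctrl cells it was at 135, 119.8 and 119 TPM without and at 107, 104 and 115 TPM with IFN-γ, with no overlap. The fitted log2 fold change of Hars was -0.37 ± 0.11 in siR_Nostrill cells (adjusted p = 0.0620, edgeR) and -0.040 ± 0.11 in siR_Ctrl cells (adjusted p = 0.886, edgeR). Of 10 other settings, 7 called Hars lower in siR_Nostrill cells, DESeq2 with an adjusted p of 0.0108.

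Sars, the seryl enzyme, lay higher by TPM with IFN-γ in siR_Ctrl and lower in siR_Nostrill cells, without a call in edgeR. It was at 174, 166 and 172 TPM in siR_Ctrl and at 178, 185 and 178 TPM in siR_Ctrl + IFN-γ cells, just above. It was at 168, 180.4 and 176 TPM in siR_Nostrill and at 145, 159 and 159 TPM in siR_Nostrill + IFN-γ cells, all below. Its log2 fold change was 0.25 ± 0.16 (adjusted p = 0.550, edgeR) and -0.35 ± 0.16 (adjusted p = 0.227, edgeR), neither past the threshold. Nor did its interaction pass, at -0.59 ± 0.22 (adjusted p = 0.430, edgeR). Mars2, the mitochondrial methionyl enzyme, had the lowest value in siR_Ctrl cells, -0.45 ± 0.18 (adjusted p = 0.238, edgeR). Its levels overlapped, at 9.95, 5.24 and 6.14 TPM without and 5.27, 2.90 and 5.81 TPM with IFN-γ. Iars, the isoleucyl enzyme, had the second highest value in siR_Nostrill cells, 0.36 ± 0.17 (adjusted p = 0.248, edgeR).

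By role, the 8 enzymes of the complex (Dars, Eprs, Iars, Kars, Lars, Mars, Qars and Rars) held 0 called genes with IFN-γ for either siRNA in edgeR, beside shares of all genes of 4.71% higher and 0.748% lower in siR_Ctrl cells and 5.24% and 1.55% in siR_Nostrill cells. With lists this short, 0 or 1 called gene is near those shares. The split by role did not hold in every setting. DESeq2, and edgeR with the length trend removed, called Kars and Rars of the complex in siR_Ctrl cells, and limma called Kars for both siRNAs. Their median log2 fold change was 0.062 in siR_Ctrl and -0.043 in siR_Nostrill cells, with 5 and 3 of 8 above 0. The 12 cytosolic enzymes outside it held Wars and Yars in siR_Ctrl cells, with a median of 0.20 and 10 of 12 above 0, and Wars alone in siR_Nostrill cells, with a median of -0.029 and 4 of 12 above 0. Of all genes tested, 48.4% and 49.9% were above 0 in these comparisons, and 37.1% and 52.2% on the FPKM scale of limma. The 17 mitochondrial enzymes held 0 called genes in siR_Ctrl and Hars2 in siR_Nostrill cells, with medians of -0.031 and -0.11 and with 7 and 3 of 17 above 0. The scaffold genes Aimp1, Aimp2 and Eef1e1 held 0 called genes in both.

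Without IFN-γ, siR_Nostrill cells held no synthetase that passed against siR_Ctrl cells in edgeR, 0 of 37 against 0.218% of all genes. DESeq2 also called 0, against 2.56% of all genes. With an unadjusted p below 0.05, 0 were higher, against 6.19% of all genes, and Wars2 was lower, 2.70% against 7.61%. Wars itself had a log2 fold change of 0.097 ± 0.072 (adjusted p = 0.462, edgeR), with levels of 30.6 to 42.3 TPM in siR_Ctrl and 30.8 to 38.4 TPM in siR_Nostrill cells. The largest differences were in Tars2, the mitochondrial threonyl enzyme, 0.30 ± 0.16 (adjusted p = 0.381, edgeR), Wars2, -0.30 ± 0.14 (adjusted p = 0.359, edgeR), and Yars, 0.24 ± 0.13 (adjusted p = 0.391, edgeR), with Sars2 and Fars2 at 0.24 as well.

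When both siRNA groups had received IFN-γ, 0 of 37 synthetases passed for siR_Nostrill against siR_Ctrl in edgeR, against 0.429% of all genes. DESeq2 called Wars, 2.70% against 5.46% of all genes. Wars was 103, 125 and 129.8 TPM in siR_Ctrl + IFN-γ and 137, 152 and 166 TPM in siR_Nostrill + IFN-γ cells, in ascending order, with no overlap, in the same comparison in which the leukocyte marker sum did not overlap. Its log2 fold change was 0.23 ± 0.071, with an adjusted p of 0.151 in edgeR and 0.0129 in DESeq2. It was the 1 synthetase higher at an unadjusted p below 0.05, 2.70% against 6.87% of all genes. Lower at that level were 8, Aars2, Farsa, Hars, Hars2, Sars, Tars, Vars and Yars, or 21.6% against 7.67%. The largest of these differences were in Sars, -0.38 ± 0.16 (adjusted p = 0.295, edgeR), Aars2, the mitochondrial alanyl enzyme, -0.36 ± 0.12 (adjusted p = 0.179, edgeR), and Yars, -0.32 ± 0.13 (adjusted p = 0.291, edgeR). The median of the 36 synthetases other than Wars was -0.058, beside -0.0026 over all genes.

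Whether Nostrill knockdown altered the response to IFN-γ was asked of the interaction term. In edgeR 0 of 37 synthetases passed, and 0% of all 11900 genes, and DESeq2 called 0 synthetases and 0% of all genes. With an unadjusted p below 0.05, 0 synthetases had an interaction above 0, against 4.72% of all genes. Cars, Hars, Hars2, Sars and Yars had one below 0 at that level, 13.5% against 6.01%. For Wars the interaction was 0.13 ± 0.10 on the log2 scale (adjusted p = 0.468, edgeR). It was -0.59 ± 0.22 for Sars, -0.56 ± 0.19 for Yars and -0.52 ± 0.23 for Cars, the cysteinyl enzyme, each with an adjusted p of 0.430 in edgeR. The difference between Yars called in siR_Ctrl cells and not called in siR_Nostrill cells was therefore not itself past the threshold.

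Transcript length moved with the spread between replicates. Across genes, how far a library lay from the mean of its group correlated with effective length, with Spearman's rho from -0.752 to 0.784, and within the 37 synthetases it ran from -0.616 to 0.579. Genes share these libraries and are not independent replicates. Iars, at 4160 nt, was at 103.8, 49.8 and 62.2 TPM in siR_Ctrl cells. With this trend removed from each library, 6 synthetases were called with IFN-γ in siR_Ctrl cells (Farsa, Kars, Rars, Tars, Wars and Yars, all higher), 16.2% against 11.1% of all genes. In siR_Nostrill cells 5 were called (Kars, Rars and Wars higher, Hars and Hars2 lower), 13.5% against 18.9%. Between the siRNAs, 0 were called without IFN-γ, against 3.43% of all genes. With IFN-γ 6 were called (Farsb and Wars higher, Aars2, Farsa, Hars and Yars lower), 16.2% against 12.9%.

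Of 28 genes of the amino acid response, which share Atf4 control with cytosolic synthetases, 3 rose with IFN-γ in siR_Ctrl cells, or 10.7% beside 4.71% of all genes. These were Atf3, a stress-induced transcription factor, from 7.96 ± 1.74 to 22.7 ± 1.1 TPM, Trib3, an inhibitor of Akt signalling, from 23.3 ± 2.53 to 46.2 ± 4.40 TPM, and Slc1a5, a glutamine transporter, from 17.4 ± 2.53 to 19.3 ± 2.65 TPM (SD, n = 3 each). The TPM of Slc1a5 differed by less than its SD, while its fitted log2 fold change was 0.31 ± 0.080 (adjusted p = 0.0467, edgeR). In siR_Nostrill cells edgeR called Atf3 alone, which rose from 7.31 ± 1.37 to 21.1 ± 0.660 TPM, or 3.57% of the list beside 5.24%. Trib3 and Slc1a5 had log2 fold changes there of 0.56 ± 0.18 (adjusted p = 0.0890, edgeR) and 0.28 ± 0.080 (adjusted p = 0.0648, edgeR). They were among 17 of the 28 genes above 0. The interactions of Trib3, -0.60 ± 0.25 (adjusted p = 0.430, edgeR), and Slc1a5, -0.035 ± 0.11 (adjusted p = 0.860, edgeR), did not pass. Atf4 was at 423 ± 21.1 and 498 ± 30.2 TPM in siR_Ctrl and siR_Ctrl + IFN-γ cells (log2 fold change 0.40 ± 0.18, adjusted p = 0.318, edgeR). The median over the 28 genes was 0.22 in siR_Ctrl and 0.011 in siR_Nostrill cells. Of 7 genes of tryptophan handling that were tested, Kyat3, a kynurenine aminotransferase, rose for both siRNAs, from 1.93 ± 0.193 to 4.80 ± 0.265 TPM in siR_Ctrl cells. Ido2, which like Ido1 opens the tryptophan ring, was near 0 without IFN-γ, at 0.167 ± 0.0987 TPM in siR_Ctrl cells, and passed the filter on low counts only through the groups with IFN-γ, so its 1.60 ± 0.616 TPM there is given as a level and not as a call. The transporter subunits Slc7a5 and Slc3a2 were not called. Of 5 cytosolic elongation factors, 10 tested genes of tRNA processing and 8 synthetase relatives, 0 were called in either comparison, which at these sizes is near the share of all genes. All 8 benchmark genes of the IFN-γ response given here, among them Irf1, Tap1 and Cxcl10, rose for both siRNAs, with log2 fold changes of 3.04 to 7.79 in siR_Ctrl and 2.27 to 6.94 in siR_Nostrill cells.

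The genes whose log2 CPM followed Wars most closely over the 12 libraries, among 9307 genes compared, were not synthetases. They were Irgm1, an interferon-induced GTPase, and Tmem173, which encodes Sting (Pearson's r = 0.997 each), followed by the chemokine gene Cxcl9 and the ADP-ribosyltransferase family genes Parp9 and Parp12 (r = 0.996 each). The 12 libraries are those of the 4 groups, so a large rise with IFN-γ for both siRNAs can itself give a high r. Yars, called in siR_Ctrl cells alone, had r = 0.465. Cxcl9, near 0 without IFN-γ (means of 0.010 and 0.020 TPM) and at 15.9 and 22.2 TPM with it, has its r set by that split. Tmem173 moved less than Wars, from 30.4 to 58.2 TPM in siR_Ctrl and from 28.6 to 71.8 TPM in siR_Nostrill cells, as group means. Among the synthetases compared, Kars came closest with r = 0.850, then Rars with 0.701, and Hars2 was lowest at -0.728.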

How the data were processed

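RNA of 12 libraries was measured by oligo(dT) RNA-seq on a DNBSEQ platform. The authors filtered reads with SOAPnuke and aligned them to GRCm38.p6 with HISAT2 and Bowtie2. The counting tool was not given in the sources. For each of 15002 genes the authors deposited an estimated count, which is not normalized and was rounded to whole numbers here. The deposited FPKM corrects for length and library depth. The deposited TPM has a total of 1000000 in the siR_Nostrill tables, whose columns come in another order, and of 999931 to 999980 in the others. The siR_Nostrill tables also list fewer genes at 0 (912 to 1104, against 1140 to 1261 in the other groups), and any difference in how they were made cannot be told apart from the group. The strand that the deposited tables list differs from GENCODE vM21 for 1704 of 14507 genes compared and for 6 of the 37 synthetases, Wars and Hars among them, always listed as plus where GENCODE has minus. Strands given here are those of GENCODE, gene coordinates those of RefSeq, and whether the listed strand affected counting was not tested.

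Counts were tested with edgeR 4.0.16 in R 4.3.3 (quasi-likelihood test, TMM, default low-count filter) in a single model of 12 libraries, with Benjamini-Hochberg adjustment over 11900 genes and a threshold of 0.05. Alternatives were DESeq2 1.42.0, its size factors in edgeR, no filter, a filter at 5 CPM, a model of the compared groups alone, a replicate block, limma 3.58.1 on log2(FPKM + 1) with mean FPKM of 0.5 or more or on all genes, the same with a pseudocount of 0.1, removal of the length trend (lowess, span 0.3) and each library left out. Full statistics were given for Wars, Wars2, every called synthetase and the 3 uncalled ones with the largest absolute change per comparison. The others are given by range or count. The members, lists and alternatives were chosen with earlier results of these data known, and the lists of complex and non-complex enzymes were added last. One gene of the IFN-γ benchmark list is not reported here.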

Additional observations from a re-analysis of the deposited data

How the results depend on the processing

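The rise of Wars with IFN-γ held in all 10 other settings and all 12 fits without 1 library for both siRNAs, with log2 fold changes of 1.78 to 1.93 in siR_Ctrl and 1.98 to 2.04 in siR_Nostrill cells. Counts of called synthetases moved. With IFN-γ in siR_Ctrl cells, 2 became 1 (Wars) with DESeq2 size factors, no low-count filter or only the groups compared, 3 with limma on either pseudocount (Kars, Wars and Yars), 4 with DESeq2 or limma on all genes (with Rars), and 6 with the length trend removed. Of all genes, 5.45% were called as reported, 6.33% by DESeq2, 4.73% by limma on log2(FPKM + 1), 3.72% by limma on all genes and 11.1% with the trend removed. DESeq2 size factors called 5.35% of all genes, no filter 3.98%, only the groups compared 2.91% and limma on log2(FPKM + 0.1) 4.7%. Leaving out single libraries gave 1 to 4. In siR_Nostrill cells, 2 became 3 with DESeq2 (Hars, Hars2 and Wars; 10.5% of all genes), 4 with only the groups compared and with limma on log2(FPKM + 1), on log2(FPKM + 0.1) and on all genes (Hars, Hars2, Kars and Wars), and 5 with the length trend removed, and 1 to 3 without single libraries. Shares of all genes were 6.78% as reported, 17.0% with only the groups compared, 7.96% by limma on log2(FPKM + 1) and 18.9% with the trend removed. By limma they were 7.9% on log2(FPKM + 0.1) and 5.75% on all genes. Between siRNAs with IFN-γ, 0 became 1 (Wars) with DESeq2 and 6 with the length trend removed, which called 5.46% and 12.9% of all genes. The cause was not tested. Against only the cytosolic synthetases, the rise of Wars relative to the family's median was 1.68 in siR_Ctrl and 2.09 in siR_Nostrill cells, beside 1.87 and 1.89 against all.

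Signs turned only where the value was near 0. For Wars2 with IFN-γ in siR_Ctrl cells the log2 fold change was -0.00087 with DESeq2, -0.00019 with its size factors, -0.050 with limma on log2(FPKM + 1) or on all genes and -0.066 on log2(FPKM + 0.1), and -0.072 to 0.077 without single libraries. For Wars2 between siRNAs with IFN-γ it was 0.0076 with limma on log2(FPKM + 1) or on all genes and 0.0094 on log2(FPKM + 0.1), and -0.14 to 0.00040 without single libraries. For Yars in siR_Nostrill cells it was 0.00024 with the length trend removed, and -0.14 to 0.039 without single libraries. Whether the replicate numbers pair the libraries could not be told. Same-numbered libraries correlated from -0.495 to 0.725 in their deviations from group means, and differently numbered ones from -0.812 to 0.769. These deviations also moved with transcript length, so the correlations cannot decide it. With the replicate block, the count of called synthetases was 2 with IFN-γ in siR_Ctrl and 3 in siR_Nostrill cells. Hars joined in siR_Nostrill cells (-0.37, adjusted p = 0.0415, edgeR), and the count was 0 in the other comparisons. Of all genes, the block called 5.41% with IFN-γ in siR_Ctrl and 7.92% in siR_Nostrill cells. Between siRNAs it called 0.151% without and 0.269% with IFN-γ, and 0% for the interaction.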
